A study of Arabidopsis thaliana with 2 samples.

Results

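The 41 glutathione S-transferase (GST) genes of the tau class (GSTU1 to GSTU28) and the phi class (GSTF2 to GSTF14) were followed in rosettes of Arabidopsis thaliana. They were chosen by gene identifier, 28 tau and 13 phi genes, out of 23147 genes listed in either library. RNA sequencing of untreated Col-0 rosettes at 28 days of age gave 1 library for each of 2 genotypes. The C3A library came from a pbl19 null mutant carrying PBL19 with cysteine 3 changed to alanine, tagged with GFP and HA and driven by the PBL19 promoter, and the WT library came from Col-0 plants. PBL19 is a receptor-like cytoplasmic kinase. The sources used here do not give the number of plants in a library or of transgenic lines, and no line with an unmutated PBL19 transgene was used here. Loss of the native gene, the amino acid change, the GFP and HA tags and the amount of PBL19 RNA all separate the libraries at once and cannot be told apart. With 1 library per genotype no difference has a replicate check and none was tested.

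GSTs join the tripeptide glutathione to reactive or toxic molecules, which can then be moved into the vacuole, and some bind small molecules without changing them. The tau and phi classes are the large plant-specific ones, and many members are known to respond to pathogens, salicylic acid, oxidants or herbicides. Both classes have a catalytic serine near the start of the protein, and many of their genes lie in tandem arrays. Within the family, named roles include camalexin and glucosinolate synthesis, carriage of flavonoid pigments and detoxification of explosives and herbicides.

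The close copies among the phi genes are shown first, because reads that match more than 1 copy have no single gene and the deposited counts of these 4 genes are fractional. The lines below give the first 150 coding bases of GSTF2 and GSTF3 and of GSTF6 and GSTF7, on the minus strand, from the RefSeq TAIR10.1 genome. Capitals mark the bases at which the members of a pair differ. They lie at chr4:1111382-1111531, chr2:851957-852106, chr1:662042-662191 and chr1:659556-659705.
GSTF2: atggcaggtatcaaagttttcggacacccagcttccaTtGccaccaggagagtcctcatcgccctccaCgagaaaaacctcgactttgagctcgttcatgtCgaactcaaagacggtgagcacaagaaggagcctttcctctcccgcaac
GSTF3: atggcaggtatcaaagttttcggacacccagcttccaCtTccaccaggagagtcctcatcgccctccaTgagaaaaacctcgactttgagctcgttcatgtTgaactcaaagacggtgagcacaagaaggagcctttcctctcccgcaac
GSTF6: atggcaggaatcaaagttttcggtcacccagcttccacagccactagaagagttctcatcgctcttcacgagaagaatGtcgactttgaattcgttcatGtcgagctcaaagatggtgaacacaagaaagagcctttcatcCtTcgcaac
GSTF7: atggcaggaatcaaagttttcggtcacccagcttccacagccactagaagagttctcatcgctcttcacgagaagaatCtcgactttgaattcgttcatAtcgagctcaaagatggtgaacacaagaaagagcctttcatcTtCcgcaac
Each pair differed at 4 of these 150 bases. Over the whole coding sequence GSTF2 and GSTF3, which lie on chromosomes 4 and 2, were 94.5% identical. GSTF6 and GSTF7, neighbours on chromosome 1, were 94.3% identical. No other pair within either class exceeded 85.5%, the value of GSTU1 and GSTU2. Of the 50-base windows of its transcripts, GSTF7 shared 9.19% with GSTF6 and GSTF2 shared 2.46% with GSTF3, while 34 of the 41 genes shared none with another gene. Estimated counts were fractional for 6 genes, namely GSTF2, GSTF3, GSTF6, GSTF7, GSTU17 and GSTU18, so the single values of these 6 are less certain than their sums.

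The C3A library held more phi class RNA than the WT library and about as much tau class RNA. The 13 phi genes summed to 4896.5 FPKM in the C3A library and 1589.8 FPKM in the WT library. FPKM divides the count of a gene by its length and by the number of fragments in the library. As a share of all counts the phi class held 0.597% in the C3A library (95% Clopper-Pearson interval 0.592 to 0.601) and 0.189% in the WT library (0.187 to 0.192). These intervals, and all those below, describe counting error and nothing else, because sequenced copies of a molecule were not marked and reads are not independent molecules. The 28 tau genes summed to 1019.3 FPKM in the C3A library and 985.5 FPKM in the WT library. The ratio of the sums was 3.08 for phi and 1.03 for tau, and 2.75 and 0.92 after rescaling so that the median gene had a ratio of 1. A bulk library does not tell more RNA per cell from more cells of an expressing type.

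Single genes were compared by the log2 ratio of FPKM + 1, C3A over WT, a scale that understates differences of low genes, and at least 2-fold means a log2 ratio of 1 or more in either direction. Of the 13 phi genes 6 were at least 2-fold higher in the C3A library and 1 was at least 2-fold lower. Of the 28 tau genes 3 were higher and 2 lower by the same rule. Over all 19527 genes with at least 1 FPKM in either library, the corresponding shares were 7.89% (1541 genes) higher and 2.85% (557 genes) lower. When the values were rescaled so that the median gene did not differ, the split over all genes was 1198 higher and 773 lower, and the 12 GST genes past 2-fold remained past it. The 95% counting interval lay wholly above 2-fold for 5 phi and 3 tau genes, beside 4.36% of all genes, and wholly below it for 0 phi and 2 tau genes, beside 1.41% of all genes. The median log2 ratio over all 13 phi genes was 0.63 and over all 28 tau genes 0.08, beside 0.11 over all 23147 listed genes. The median gene with at least 1 FPKM stood at 0.14, a shift against which all ratios here are to be read. Of the 41 genes 37 reached 1 FPKM, and GSTF3, GSTU3 and GSTU11 did so through the C3A library alone.

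**Figure D1:**
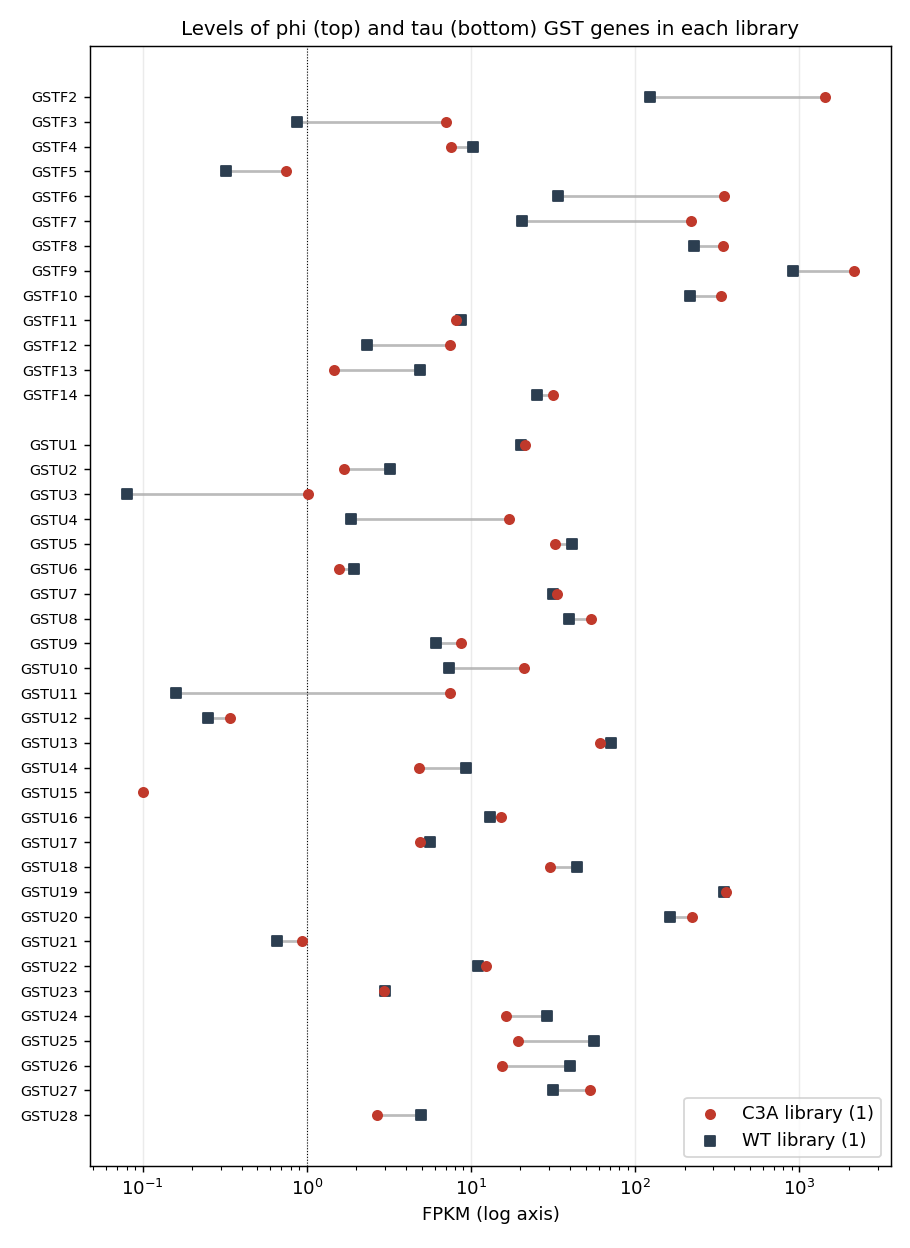
FPKM (log axis) of each phi and tau GST gene, with a circle for the C3A library, a square for the WT library and 1 library per genotype. The circles of GSTF2, GSTF6, GSTF7 and GSTF9 lie between 217.6 and 2159.5 FPKM, to the right of their squares; GSTU15 has no square because it is not listed in the WT library, and the dotted line marks 1 FPKM.

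GSTF2, a GST of the plasma membrane and cytosol that binds indoles, flavonols and camalexin, was at 1430.2 FPKM from 25294 counts in the C3A library and at 122.6 FPKM from 2156 counts in the WT library. The C3A library was 11.7-fold higher (95% counting interval 11.2 to 12.2), and the gene stood at rank 51 of all genes by FPKM in the C3A library and at rank 751 in the WT library. GSTF2 (AT4G02520) has 3 exons on the minus strand, between positions 1110343 and 1112033 of chromosome 4. Of its 1471 exon bases, 890 lie within exons of TOC159 (AT4G02510), a receptor for protein import into chloroplasts, on the opposite strand. TOC159 was at 269.1 FPKM in the C3A library and 73.3 FPKM in the WT library. Whether counting used strand is not given in the sources used here, so reads of these 2 genes cannot be told apart with certainty.

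GSTF3 (AT2G02930), the close copy of GSTF2, was at 7.07 FPKM from 88.0 counts in the C3A library and at 0.87 FPKM from 10.8 counts in the WT library. Its ratio was 8.13 (4.23 to 16.5), and it was the lower of the pair in both libraries. Its counts amounted to 0.348% of those of GSTF2 in the C3A library and 0.499% in the WT library, so reads of GSTF2 and GSTF3 cannot be told apart with certainty at the level of GSTF3.

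GSTF6 and GSTF7 differed between the libraries by nearly the same ratio. GSTF6 (AT1G02930) conjugates glutathione to indole-3-acetonitrile in camalexin synthesis, and it was at 349.9 FPKM in the C3A library and 33.7 FPKM in the WT library, 10.4-fold higher (9.31 to 11.7). GSTF7 (AT1G02920) was at 217.6 FPKM in the C3A library and 20.4 FPKM in the WT library, 10.65-fold higher (9.44 to 12.03). The array on chromosome 1 runs from GSTF7 at 658578 through GSTF6 and GSTF5 to GSTF4, which ends at 666471, all on the minus strand. The other members of the array had few counts or a ratio below 1. GSTF5 was at 0.75 FPKM from 7 counts in the C3A library and 0.32 FPKM from 3 counts in the WT library, a ratio of 2.34 (0.535 to 14.05), an interval that also holds the ratios of GSTF6 and GSTF7. GSTF4 was at 7.57 FPKM in the C3A library and 10.25 FPKM in the WT library, a ratio of 0.739 (0.548 to 0.993). GSTF4 and GSTF5 are also distant in sequence, with coding identities to GSTF6 and GSTF7 between 48.6% and 55.1%.

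GSTF9 (AT2G30860) was the most abundant of the 41 genes in both libraries, at 2159.5 FPKM in the C3A library and 916.9 FPKM in the WT library. It was 2.36-fold higher (2.30 to 2.41) and stood at rank 24 of all genes in the C3A library and at rank 85 in the WT library. GSTF9 has been linked to indole glucosinolate and camalexin synthesis. Its tandem neighbour GSTF10, which is 77.6% identical in coding sequence, was at 334.4 FPKM in the C3A library and 215.8 FPKM in the WT library, a log2 ratio of 0.63. GSTF8, a stress-responsive GST found in the chloroplast and cytosol, was at 340.7 FPKM in the C3A library and 227.7 FPKM in the WT library, a log2 ratio of 0.58. Both were higher in the C3A library beyond counting error but within 2-fold.

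GSTF12 (AT5G17220), known as TT19 for the pale seeds of its mutant and needed to carry anthocyanins to the vacuole, was at 7.50 FPKM from 98 counts in the C3A library and 2.31 FPKM from 30 counts in the WT library. The ratio was 3.25 (2.14 to 5.06), and 9.85% of its exon bases overlap PSY on the opposite strand, which was at 78.75 FPKM in the C3A library and 113.5 FPKM in the WT library. GSTF13 (AT3G62760) was the phi gene lower in the C3A library, at 1.47 FPKM from 16 counts against 4.90 FPKM from 53 counts in the WT library. It was 3.33-fold lower (1.88 to 6.25), and its counting interval on the FPKM + 1 scale did not lie wholly past 2-fold; nor did that of GSTF12. GSTF14 was at 31.8 FPKM in the C3A library and 25.3 FPKM in the WT library. GSTF11, which acts in aliphatic glucosinolate synthesis, was at 8.13 FPKM in the C3A library and 8.72 FPKM in the WT library. All of its exon bases lie within NAC045 on the opposite strand, so its level is uncertain.

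The make-up of the phi class differed between the libraries. GSTF9 made up 44.1% of summed phi FPKM in the C3A library and 57.7% in the WT library, and GSTF2 made up 29.2% in the C3A library and 7.71% in the WT library. GSTF8 and GSTF10 were at ranks 4 and 5 of the 13 in the C3A library, while they were at ranks 2 and 3 in the WT library. The difference in the sum did not rest on GSTF2 and GSTF9 alone. Without both, the remaining 11 phi genes summed to 1306.9 FPKM in the C3A library and 550.3 FPKM in the WT library, a ratio of 2.37. Most of this remaining difference lay in 1 array. The array GSTF4 to GSTF7, mainly through GSTF6 and GSTF7, held 511.1 of the 756.6 FPKM. The median log2 ratio of the 11 genes was 0.58, within 2-fold.

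**Figure D2:**
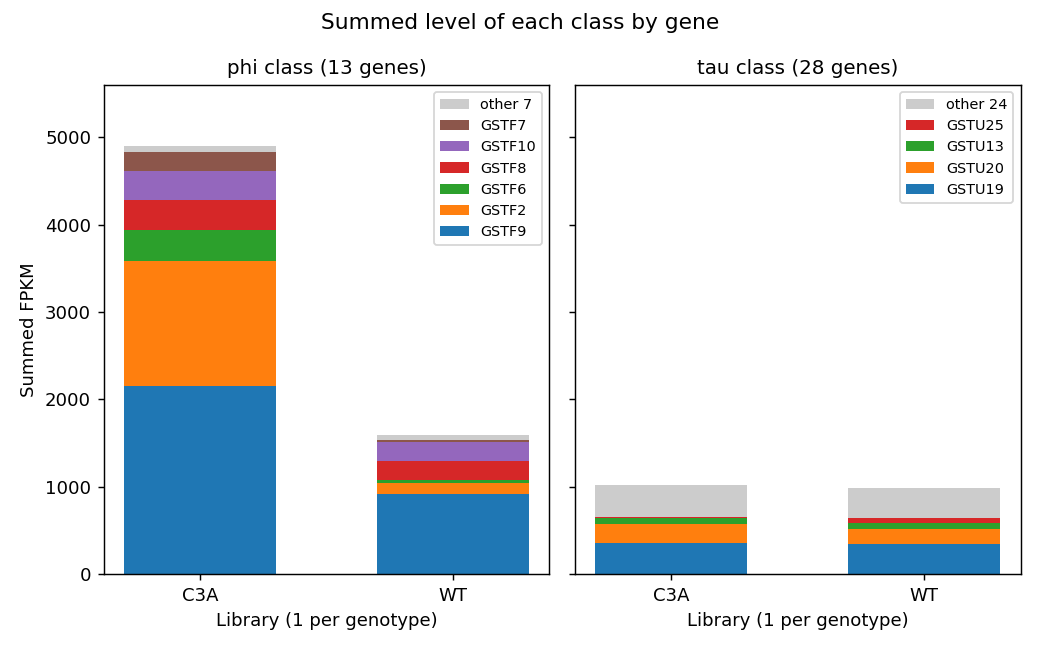
Summed FPKM of the 13 phi genes (left) and of the 28 tau genes (right) in the C3A and WT libraries, split by gene from the bottom of each bar, with 1 library per genotype and no error bars. The phi bar reaches 4896.5 FPKM in the C3A library and 1589.8 FPKM in the WT library, with GSTF9 and GSTF2 as the deepest layers, while the tau bars reach 1019.3 and 985.5 FPKM.

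The tau class was carried by 2 genes of 1 array on chromosome 1 that lay near or slightly above the median gene. GSTU19 (AT1G78380), an abundant GST active on many substrates, was at 357.9 FPKM in the C3A library and 348.8 FPKM in the WT library, a ratio of 1.03 (0.985 to 1.07). GSTU20 (AT1G78370), linked to aliphatic glucosinolate synthesis and to the jasmonate-conjugating enzyme JAR1, was at 221.9 FPKM in the C3A library and 163.4 FPKM in the WT library, a ratio of 1.36 (1.29 to 1.43). Together with GSTU21, GSTU22 and GSTU23 they form a run on the minus strand from 29467412 to 29488007. GSTU22 was at 12.4 FPKM in the C3A library and 11.03 FPKM in the WT library, GSTU23 was at 2.97 FPKM in the C3A library and 3.0 FPKM in the WT library, and GSTU21 stayed below 1 FPKM in both. No gene of this array was past 2-fold.

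The 3 tau genes that were at least 2-fold higher came from low WT levels. GSTU4 (AT2G29460) was at 17.1 FPKM from 241 counts in the C3A library and 1.86 FPKM from 26 counts in the WT library, 9.22-fold higher (6.14 to 14.4). GSTU10 (AT1G74590) was at 21.0 FPKM from 289 counts in the C3A library and 7.31 FPKM from 100 counts in the WT library, 2.87-fold higher (2.28 to 3.64). GSTU11 (AT1G69930) was at 7.49 FPKM from 97 counts in the C3A library and 0.16 FPKM from 2 counts in the WT library, a ratio of 46.8 (12.6 to 392.04). All 3 lay above their WT value beyond counting error, and the intervals lay wholly past 2-fold on the FPKM + 1 scale. GSTU10 overlaps AT1G74580 on the opposite strand over 89 of its 1153 exon bases and AT1G74600 on the same strand, and both of those genes were within 2-fold.

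GSTU4 lies in the largest array, GSTU7 to GSTU1 on the minus strand of chromosome 2 from 12617936 to 12632538, and it was the single gene of the 7 past 2-fold. Its neighbour GSTU3 was at 1.02 FPKM from 13 counts in the C3A library and 0.08 FPKM from 1 count in the WT library, a ratio of 12.75 (1.92 to 542) and a log2 ratio of 0.90 on the FPKM + 1 scale. GSTU1, 83.9% identical to GSTU4 in coding sequence, was at 21.5 FPKM in the C3A library and 20.15 FPKM in the WT library. GSTU2, 83.6% identical to GSTU4, was at 1.69 FPKM from 19 counts in the C3A library and 3.21 FPKM from 36 counts in the WT library. So close coding sequences in 1 array stood 2.58 log2 units apart in ratio, in the case of GSTU4 and GSTU1. For GSTU4 and GSTU2, the latter with few counts, the distance was 3.31. GSTU5 was at 32.4 FPKM in the C3A library and 41.4 FPKM in the WT library, GSTU7 at 33.3 FPKM in the C3A library and 31.65 FPKM in the WT library, and GSTU6 at 1.56 FPKM in the C3A library and 1.95 FPKM in the WT library. GSTU2, GSTU6 and GSTU7 overlap annotated genes on the opposite strand over 70.3%, 29.9% and up to 63.02% of their exon bases.

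The array GSTU24 to GSTU26, on the plus strand of chromosome 1 from 5869543 to 5876620, was lower in the C3A library in all 3 members by more than counting error, with GSTU25 and GSTU26 past 2-fold. GSTU25 (AT1G17180), induced by and active on the explosive trinitrotoluene like GSTU24, was at 19.2 FPKM from 232 counts in the C3A library and 56.3 FPKM from 676 counts in the WT library, 2.93-fold lower (2.52 to 3.42). GSTU26 (AT1G17190) was at 15.4 FPKM in the C3A library and 39.97 FPKM in the WT library, 2.60-fold lower (2.20 to 3.08). GSTU24 (AT1G17170) was at 16.4 FPKM in the C3A library and 29.1 FPKM in the WT library, 1.77-fold lower (1.51 to 2.09), a log2 ratio of -0.79. The array summed to 51.03 FPKM in the C3A library and 125.4 FPKM in the WT library. GSTU25 is 76.1% identical in coding sequence to GSTU19, whose ratio was 1.03.

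The pairs GSTU13 with GSTU14 and GSTU17 with GSTU18 had lower values in the C3A library, within 2-fold and, for GSTU17, within counting error. GSTU13, which acts with the indole glucosinolate pathway in pathogen resistance, was at 61.4 FPKM in the C3A library and 70.9 FPKM in the WT library, and GSTU14 was at 4.79 FPKM in the C3A library and 9.30 FPKM in the WT library. GSTU18 was at 30.5 FPKM in the C3A library and 44.05 FPKM in the WT library, and GSTU17, named ERD9 for its response to dehydration, was at 4.92 FPKM in the C3A library and 5.66 FPKM in the WT library. GSTU17 and GSTU18 overlap on the same strand, so their counts are shared in part. In the pair GSTU11 and GSTU12, GSTU12 had 4 counts in the C3A library and 3 in the WT library, so GSTU11 alone carried the difference. In the pair GSTU15 and GSTU16, GSTU15 had 1 count in the C3A library and was not listed in the WT library, while GSTU16 was at 15.2 FPKM in the C3A library and 12.98 FPKM in the WT library.

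Of the tau genes outside arrays, GSTU27 was at 52.95 FPKM in the C3A library and 31.4 FPKM in the WT library, a log2 ratio of 0.73. GSTU8 was at 53.5 FPKM in the C3A library and 39.8 FPKM in the WT library, and GSTU9 was at 8.68 FPKM in the C3A library and 6.15 FPKM in the WT library. GSTU28 was at 2.69 FPKM in the C3A library and 4.96 FPKM in the WT library, a log2 ratio of -0.69. None of these 4 was past 2-fold.

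Arrays were defined as members of 1 class lying within 10 kb of each other, which gave 9 arrays with 29 genes and 12 genes alone. By the 2-fold rule, 5 of the 29 array genes were higher and 2 lower, and 4 of the other genes were higher and 1 lower. Only 25 of the array genes reached 1 FPKM, while all 12 of the others did. Over all genes with at least 1 FPKM, 7.89% were higher and 2.85% lower. The median difference in log2 ratio between 2 tau genes was 0.44 for the 38 pairs within an array and 0.78 for the 340 other pairs. For phi genes it was 2.93 for the 7 pairs within an array and 1.57 for the 71 other pairs. The value of 2.93 is that of GSTF5 with GSTF6. GSTF5 had 7 counts in the C3A library and 3 in the WT library, so this median rests on a gene near the floor. Genes share pairs, so these medians are descriptions. All 28 tau genes have 2 exons in the isoform with the longest coding sequence, and 9 of the 13 phi genes have 3.

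**Figure D3:**
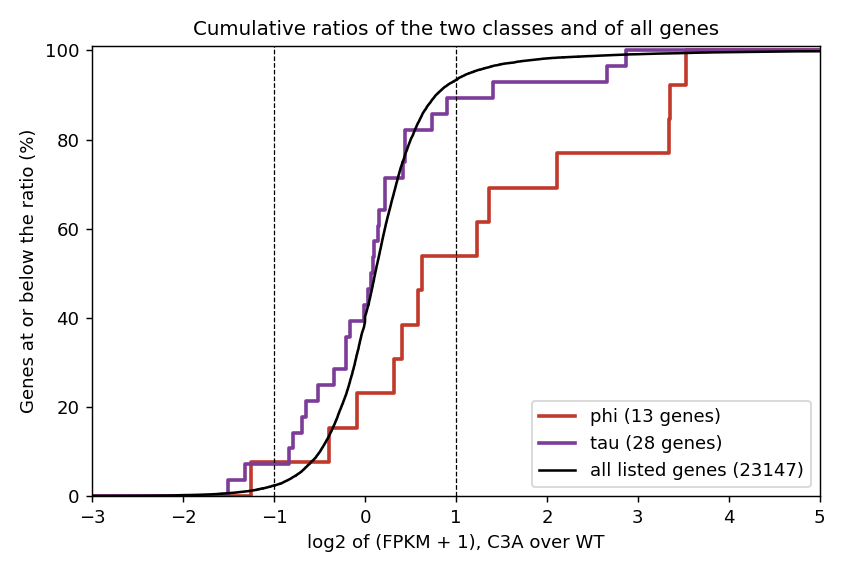
Share of genes (%) at or below each log2 ratio of FPKM + 1, C3A over WT, for the 13 phi genes, the 28 tau genes and all 23147 listed genes, with dashed lines at 2-fold. The phi curve lies right of the others over most of its range, with 6 genes past the right dashed line, while the tau curve stays close to that of all genes, with 3 past the right and 2 past the left line.

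Of the nearest genes outside both classes beside the 12 GST genes past 2-fold, 3 were themselves past it. These counts, 2 higher and 1 lower, are too small to set apart from the shares over all genes, 7.89% higher and 2.85% lower. The nearest gene with at least 1 FPKM that is no tau or phi GST was taken on each side, passing over members of the arrays, which gave 20 genes with a median log2 ratio of 0.0066. Of them 2 were higher by 2-fold or more, TOC159 and TOPP1. TOC159 overlaps GSTF2 on the opposite strand, so its reads cannot be told apart from those of GSTF2 with certainty. TOPP1, a protein phosphatase gene, lies 11064 bases from GSTU4. The 1 that was at least 2-fold lower was BGLU8, a beta-glucosidase gene 149 bases from GSTF13, at 36.8 FPKM in the C3A library and 111.9 FPKM in the WT library. LPA1, 362 bases beyond GSTF7, was at 25.9 FPKM in the C3A library and 26.02 FPKM in the WT library.

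The 250 bases before the annotated start are shown for 6 genes past 2-fold whose window lies in no other gene and holds a match, 4 that were higher (GSTF7, GSTU11, GSTU4 and GSTF3) and 2 that were lower (GSTU25 and GSTU26). They are read from the RefSeq TAIR10.1 genome on the strand of each gene. Capitals mark matches on either strand to the W-box (TTGACC or TTGACT), which WRKY factors bind, to the core of TGA factor sites (TGACG), or to the G-box (CACGTG). The windows are chr1:659981-660230, chr1:26338819-26339068, chr2:12627892-12628141 and chr2:852322-852571 on the minus strand, and chr1:5871774-5872023 and chr1:5875045-5875294 on the plus strand.
GSTF7: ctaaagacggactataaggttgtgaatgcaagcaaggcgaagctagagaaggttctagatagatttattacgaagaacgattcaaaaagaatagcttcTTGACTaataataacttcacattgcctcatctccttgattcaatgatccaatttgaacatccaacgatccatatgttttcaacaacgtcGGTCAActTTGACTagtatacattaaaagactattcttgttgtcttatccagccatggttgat
GSTU11: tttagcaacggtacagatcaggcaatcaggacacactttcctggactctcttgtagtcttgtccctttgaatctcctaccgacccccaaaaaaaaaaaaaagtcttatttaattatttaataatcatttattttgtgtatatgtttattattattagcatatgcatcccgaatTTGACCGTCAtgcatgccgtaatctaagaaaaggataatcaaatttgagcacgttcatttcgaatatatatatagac
GSTU4: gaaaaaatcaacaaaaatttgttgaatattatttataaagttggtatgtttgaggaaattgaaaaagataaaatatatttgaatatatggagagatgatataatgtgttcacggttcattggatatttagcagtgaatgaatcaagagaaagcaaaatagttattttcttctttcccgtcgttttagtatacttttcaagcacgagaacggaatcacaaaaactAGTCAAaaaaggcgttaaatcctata
GSTF3: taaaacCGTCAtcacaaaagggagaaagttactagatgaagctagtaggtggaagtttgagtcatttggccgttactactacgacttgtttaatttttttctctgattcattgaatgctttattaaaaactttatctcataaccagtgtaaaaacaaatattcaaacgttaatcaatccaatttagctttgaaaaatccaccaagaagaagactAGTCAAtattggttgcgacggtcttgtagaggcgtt
GSTU25: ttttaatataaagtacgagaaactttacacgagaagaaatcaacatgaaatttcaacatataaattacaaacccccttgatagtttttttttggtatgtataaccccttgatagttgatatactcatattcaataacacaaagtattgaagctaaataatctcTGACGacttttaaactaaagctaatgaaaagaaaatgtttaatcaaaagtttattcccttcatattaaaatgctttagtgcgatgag
GSTU26: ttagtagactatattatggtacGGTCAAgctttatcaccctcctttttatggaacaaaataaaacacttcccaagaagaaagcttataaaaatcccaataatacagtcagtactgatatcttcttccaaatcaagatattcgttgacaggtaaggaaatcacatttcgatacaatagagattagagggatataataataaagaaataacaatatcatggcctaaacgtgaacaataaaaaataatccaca
Windows were compared for 40 of the GST genes. A W-box match was present in 6 of the 8 windows compared among the 9 genes at least 2-fold higher (75%), in 1 of the 3 of genes at least 2-fold lower, and in 13 of the 29 within 2-fold (44.8%). It was present in 20 of all 40 windows (50%). The share was 28.4% over the windows of 27443 protein-coding genes and 40.4% over those of 1536 protein-coding genes at least 2-fold higher. Among the higher GST genes with a W-box match, GSTF12 and GSTU10 have windows that overlap another gene. GSTF7 held 3 such matches, and GSTF2 and GSTF9 were the 2 of these higher genes with none. The TGA core was present in 2 of the 8 windows of higher genes and in 14 of the 40 (35%), beside 18.6% of all protein-coding genes. In GSTU11 a W-box and a TGA core match overlap in 1 run. The G-box was present in 2 of the 40 windows, those of GSTU17 and GSTU18. A match describes the letters and does not show binding, and a window without one says only that these letters are not in it.

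**Figure D4:**
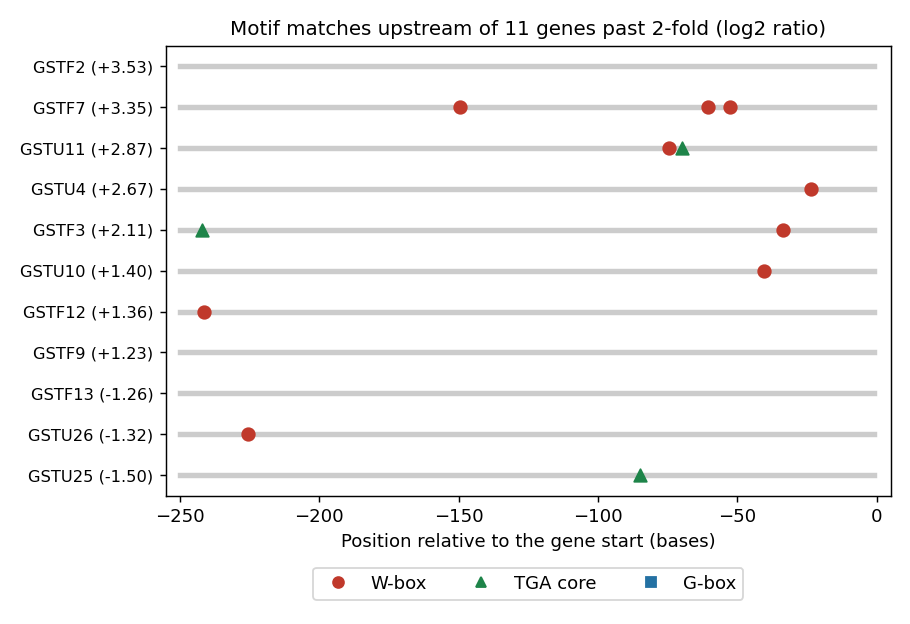
Positions of W-box, TGA core and G-box matches in the 250 bases before the start of each of 11 genes past 2-fold, ordered by log2 ratio (in brackets), with the gene start at the right edge. The W-box matches of GSTU4, GSTF3 and GSTU10 lie within 50 bases of the start, while GSTF2, GSTF9 and GSTF13 have no match to any of the 3 motifs and no window shown holds a G-box.

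Genes of glutathione metabolism and its surroundings were compared through 13 lists with 52 genes, none of them tau or phi GSTs, which include 8 electrophile and xenobiotic response genes and 3 TGA factors. By the 2-fold rule 5 of the 50 with at least 1 FPKM were higher in the C3A library and none was lower, beside 7.89% higher and 2.85% lower over all genes. Their pooled median log2 ratio was 0.20, beside 0.14 over all genes, but the 13 lists did not move together. The list medians ran from -0.44 for the electrophile and xenobiotic response genes to 0.87 for the glutathione peroxidase-like genes. None of the 12 genes of the other soluble GST classes (lambda, theta, zeta, dehydroascorbate reductases and TCHQD) was past 2-fold, and they summed to 912.6 FPKM in the C3A library and 878.2 FPKM in the WT library. GSTL3 was at 139.6 FPKM in the C3A library and 156.7 FPKM in the WT library. DHAR1, which regenerates ascorbate, was at 442.1 FPKM in the C3A library and 388.9 FPKM in the WT library.

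Genes that make glutathione were close to level. GSH1, the first enzyme of glutathione synthesis, was at 86.7 FPKM in the C3A library and 94.4 FPKM in the WT library, and GSH2, the second, was at 55.3 FPKM in the C3A library and 50.2 FPKM in the WT library. The reductases GR1 and GR2 and all 5 sulfate reduction genes (APR1, APR2, APR3, SIR and ATPS1) were within 2-fold. The 5 genes past 2-fold were ABCC3, PCS1, GPX7, GPX8 and CYP81D8. ABCC3, a vacuolar transporter of glutathione conjugates, was at 28.4 FPKM in the C3A library and 5.17 FPKM in the WT library, 5.50-fold higher (4.87 to 6.21), while its relative ABCC2 was at 10.25 FPKM in the C3A library and 16.97 FPKM in the WT library. PCS1, which makes phytochelatins and also trims glutathione conjugates, was at 50.7 FPKM in the C3A library and 21.1 FPKM in the WT library, 2.40-fold higher (2.15 to 2.68).

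GPX8 and GPX7, peroxidases of the glutathione peroxidase family, were at 34.5 and 3.17 FPKM in the C3A library and at 15.7 and 0.93 FPKM in the WT library, and both overlap a gene on the opposite strand. Of the 8 genes of this family 6 had a log2 ratio above 0 and 2 below 0. GPX2 was at 106.2 FPKM in the C3A library and 56.3 FPKM in the WT library, a log2 ratio of 0.90. GPX5 was at 57.9 FPKM in the C3A library and 31.6 FPKM in the WT library, a log2 ratio of 0.85. GPX1, of the chloroplast, was at 147.5 FPKM in the C3A library and 271.5 FPKM in the WT library, within 2-fold. CYP81D8, a cytochrome P450 gene used as a marker of xenobiotic responses, was at 11.8 FPKM in the C3A library and 1.91 FPKM in the WT library, 6.18-fold higher (4.43 to 8.82), but it was the only one past 2-fold of the 8 genes of the electrophile and xenobiotic list, of which 6 lay below 0. TGA2, TGA5 and TGA6, factors known to bind TGACG sites, were all within 2-fold, with log2 ratios from 0.15 to 0.56.

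The libraries held 12001808 estimated counts for C3A and 11937705 for WT. PBL19 (AT5G47070), the gene of the transgene, was at 465.5 FPKM in the C3A library and 6.68 FPKM in the WT library. The rosette markers RBCS1A, LHCB1.3, RCA and GLDP1 were abundant in both libraries and all 4 were lower in the C3A library, GLDP1 by more than 2-fold, with a sum of 25481 FPKM in the C3A library and 38677 FPKM in the WT library. The 5 flower and 4 seed markers stayed at or below 0.38 FPKM, with AP1, AP3, CRU3 and AT2S1 listed in neither. Of 8 root markers 4 were at least 2-fold lower in the C3A library (IRT1, FRO2, PIN2 and EXPA7), beside 2.85% of all genes. COBL9, NRT2.1 and CASP1 were lower but within 2-fold by the same rule. PHT1;4 went the other way, at 6.36 FPKM in the C3A library and 3.53 FPKM in the WT library. No root marker was listed at 0, and the list summed to 43.8 FPKM in the C3A library and 79.7 FPKM in the WT library. CASP1 was the highest of them, at 21.2 FPKM in the C3A library and 31.0 FPKM in the WT library. Whether root tissue was in either library, and so in the GST levels, was not tested. The part of the rosette and root markers in the lower values of GSTU24, GSTU25, GSTU26 and GSTF13 was not tested.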

How the data were processed

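The authors deposited, for each of the 2 libraries, 1 table of listed genes. Per the file headers, the deposited tables hold estimated counts, beside gene lengths and FPKM; how the authors divided reads that match several genes is not given in the sources used here. The deposited FPKM values are scaled to length and to the fragments counted. Trimmomatic 0.36, HISAT and TAIR10 are named in the submitters' processing notes. Sequencing gave 150 bp paired-end reads, per the labels' protocols. The counting tool and its use of strand are not given in the sources used here. Genes unlisted in 1 table were set to 0. The deposited length equalled that of the RefSeq TAIR10.1 transcript (tolerance 0.01) for each of the 12079 genes with a single transcript, and its coordinates are given.

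Members and lists were chosen with earlier results of these data known. All 41 members are named, and of the other lists the genes past 2-fold and a few others. Fold intervals are exact conditional (Clopper-Pearson) 95% intervals of counts rounded to whole numbers, carried over to FPKM. In a test on simulated data for C3A over WT, with 18512 genes and counting error only, they covered the true ratio for 95.7% of genes. The simulated counts followed the counting model that the intervals assume, so this checks the calculation alone. Genes with few counts were left out of it, and the simulated counts were whole numbers. The window before 1 gene is not reported here. Coding identities come from global alignments, gaps counted. Python 3.11.15, pandas 2.3.3, numpy 2.4.6, scipy 1.17.1, biopython 1.88, matplotlib 3.10.9, R 4.3.3 and edgeR 4.0.16 (TMM factors only) were used. Alternatives varied the pseudocount, the FPKM minimum, the scaling, the gene length and the members kept.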

Additional observations from a re-analysis of the deposited data

How the results depend on the processing

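No paired analysis was possible because each genotype has 1 library and no result comes from a test. The 12 genes past 2-fold stayed past it with no minimum, after rescaling to a median ratio of 1, with TMM factors and with 1 length per gene. With a pseudocount of 0.1 GSTU3 joined the higher genes, and a minimum of 5 FPKM removed GSTF13, leaving 0 phi genes lower. The tau median log2 ratio of 0.04 (genes with at least 1 FPKM) became -0.13 at a median ratio of 1 and -0.12 with TMM. Both settings shift all genes by nearly the same amount, and the median over all genes was 0.14 as deposited, -0.0011 at a median ratio of 1 and 0.0063 with TMM, above the tau median in each. The phi median of 0.93 was 0.63 with no minimum, 1.23 at 5 FPKM or more, 0.45 without genes with fractional counts and 1.23 without genes overlapping on the opposite strand. Without fractional counts 2 phi genes were higher, GSTF9 and GSTF12, since GSTF2, GSTF3, GSTF6 and GSTF7 leave the list. The summed ratios at a median ratio of 1 were 2.75 for phi and 0.92 for tau. Counting intervals wholly past 2-fold left 0 phi genes lower, and 851 genes higher and 275 lower overall. With a pseudocount of 0.1, 911 genes were lower overall. Depth limits GSTU3, GSTU11, GSTU12, GSTU15 and GSTF5, with 3 counts or fewer in the WT library.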
